A study of Mus musculus with 3 samples.

Results

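Sox2, Sox9, Sox4, Sox11 and Sox21, 5 genes of the SOX family of transcription factors, were followed through the epithelium and the other cells of the mouse lung at E14.5, in mid-gestation. They were taken as a named set, not by their values, and were found by Ensembl ID in the gene table of every library, 5 of the 30406 genes that the tables share and of the 20 SOX genes among these. SOX proteins bind DNA through an HMG box, a domain that bends the double helix. In the branching lung the SOXE factor Sox9 is known as a marker of the distal tips, whose progenitors lengthen the tree, and the SOXB factor Sox2 as a marker and regulator of the conducting airway left behind the tips. Sox21 is a SOXB repressor that shares sequence targets with Sox2, and Sox4 and Sox11 are SOXC factors that many progenitor tissues express.

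The study sorted cells from E14.5 lungs of C57/B6 embryos, pooled from 2 pregnant females, after staining with antibodies against Epcam, an epithelial surface protein, and Icam1, an adhesion molecule of the cell surface. The Epcam+ Icam+ sort gave 2 libraries and the Epcam+ sort gave 1, and neither carries a named mutation or treatment. Single-cell 3' sequencing counted unique molecular identifiers (UMIs), each standing for 1 captured transcript, and the design asks how Epcam+ cells picked for Icam1 differ from Epcam+ cells at large. No label gives the pool of lungs behind each library, so p-values measure the spread between these libraries only, which may be technical. Between the sorts, that spread is the one between the 2 Epcam+ Icam+ libraries, borrowed across genes. The 1 Epcam+ library adds none, so variation of the Epcam+ sort is not measured.

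The libraries held 67843828 to 84460347 UMIs, and 3266, 3046 and 2902 cells were kept. Values below are in the order first Epcam+ Icam+, second Epcam+ Icam+ and Epcam+ library unless another order is named. The libraries shared 0 to 3 cell barcodes by pairs. Epithelial cells numbered 2446, 2231 and 2671. Against the labels, 561, 475 and 51 barcodes were macrophage-like. Both groups were named from marker lists, and every marker of both lists had UMIs in both groups. Levels are in CPM, the UMIs of the genes in a class scaled to a common library total. The 6 general epithelial markers summed to 3463, 3394 and 3073 CPM in the epithelium and 665.7, 579.5 and 397.1 CPM in macrophage-like barcodes. The 8 macrophage markers summed to 9716, 10360 and 10510 CPM in those barcodes and 16.79, 9.232 and 16.56 CPM in the epithelium. Clusters were found in each library without any SOX gene. Airway-like clusters (300, 358 and 275 cells) and tip-like clusters (301, 284 and 814 cells) were named from markers. For the tip-like name the tip and alveolar type 2 lists were joined into 1 list. The 8 tip markers summed to 15750, 14880 and 4114 CPM (the UMIs of the genes in a class, scaled to a common library total) in tip-like cells against 545.2, 540.7 and 1397 CPM in airway-like cells. The 8 airway markers summed to 2893, 3329 and 1537 CPM in airway-like cells against 464.4, 431.4 and 338.0 CPM in tip-like cells. The 8 alveolar type 2 markers summed to 618.7, 603.1 and 357.0 CPM in tip-like cells against 24.93, 32.02 and 84.28 CPM in airway-like cells. In the whole epithelium the tip markers summed to 6251, 6577 and 3345 CPM. The surfactant gene Sftpc, a tip gene, was there at 5870, 6198 and 2421 CPM. How far the tip-like class rests on Sftpc was not tested. Alveolar type 1-like clusters (412 and 438 cells) were named only in the Epcam+ Icam+ libraries, and 1433, 1151 and 1547 epithelial cells stayed unnamed.

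The genes lie apart in the mm10 genome. Sox2 (ENSMUSG00000074637, chr3:34650405-34652461, plus strand), Sox4 (ENSMUSG00000076431, chr13:28948919-28953713, minus strand), Sox11 (ENSMUSG00000063632, chr12:27334264-27342574, minus strand) and Sox21 (ENSMUSG00000061517, chr14:118233232-118237030, minus strand) each have a single exon, and Sox9 (ENSMUSG00000000567, chr11:112782224-112787760, plus strand) has 3. Sox2 lies within Sox2ot, a noncoding gene on the same strand with which it shares 0 exonic bases and which only the Epcam+ Icam+ tables list. A noncoding gene antisense to Sox21, Gm4675, overlaps 713 of its exonic bases and is listed in every table, and Gm26735, antisense to Sox4 over 2616 bases, is listed only in the Epcam+ table. The strand setting of the counting is not given in the sources used here, and how reads of such pairs were assigned was not checked.

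The promoters of Sox2 and Sox21 are shown because these genes were high in the same cells. Each window runs 5′ to 3′ on the gene's strand, from 250 bases before to 50 bases after the RefSeq start (GRCm38.p6, chr3:34649745-34650044 for Sox2 and chr14:118236981-118237280 for Sox21). Capitals mark a match to the SOX recognition letters that were searched, ACAAT and ACAAAG, on both strands.
Sox2: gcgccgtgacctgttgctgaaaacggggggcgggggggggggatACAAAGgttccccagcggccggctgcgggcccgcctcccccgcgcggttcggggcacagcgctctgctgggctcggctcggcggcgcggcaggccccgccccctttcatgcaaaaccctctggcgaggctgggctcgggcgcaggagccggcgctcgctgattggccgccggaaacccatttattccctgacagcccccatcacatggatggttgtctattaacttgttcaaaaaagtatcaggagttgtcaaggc
Sox21: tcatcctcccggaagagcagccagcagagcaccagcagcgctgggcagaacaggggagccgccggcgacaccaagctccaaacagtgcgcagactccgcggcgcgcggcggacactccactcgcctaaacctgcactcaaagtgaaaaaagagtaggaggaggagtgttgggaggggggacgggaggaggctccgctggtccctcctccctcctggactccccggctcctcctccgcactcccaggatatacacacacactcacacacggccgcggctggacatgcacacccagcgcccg
Both windows are rich in G and C (66.33% and 65.67%) and in CG steps (27 and 22). ACAAAG occurs once in the Sox2 window, as it does at least once in 18.71% of 32851 RefSeq promoters of this length, and ACAAT occurs in 31.02% of them. Neither set of letters is in the Sox21 window, nor in those of Sox4 and Sox11, and 42.88% of all promoters hold at least 1 of them.

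Sox2 and Sox9 divided the epithelium along the airway-to-tip line in every library. In airway-like cells Sox2 was at 54.7, 59.0 and 117.8 CPM. In tip-like cells it was at 0.119, 0.589 and 1.11 CPM, from 1, 5 and 31 UMIs. Every airway value lay above every tip value. The log2 ratio of airway to tip was 8.85, with an exact 95% interval of 6.36 to 14.16 that covers counting error only, then 6.65 (5.41 to 8.28) and 6.73 (6.21 to 7.29). Sox9 ran the other way, at 70.9, 77.3 and 87.4 CPM in tip-like cells and 13.2, 20.3 and 31.8 CPM in airway-like cells. Its log2 ratio of airway to tip was -2.43, -1.93 and -1.46. Macrophage-like barcodes, as a background, had 6.07, 7.70 and 7.74 CPM of Sox9, and the airway-like intervals (10.4 to 16.5, 16.9 to 24.2 and 27.9 to 36.1 CPM) did not overlap those of that background. Among airway-like cells both genes were highest in the Epcam+ library. The Sox2 ratio of the first library rests on 1 tip-like UMI and was 6.24 at a clustering resolution of 0.6, and that of the Epcam+ library was 5.40 with joint clustering. These ratios are descriptions with no test, since the classes come from the same cells, and names of classes rest on clusters rebuilt here.

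In the plot of levels by class, alveolar type 1-like cells stood between these extremes. Such cells are early members of the flat gas-exchange lineage. Their Sox2 was at 1.91 and 1.23 CPM, above the tip values of 0.119 and 0.589 CPM and far under the airway values. The Sox2 intervals of type 1-like and tip-like cells were apart in the first library (1.04 to 3.20 against 0.003 to 0.661 CPM). In the second library the 2 type 1-like clusters had 1.76 and 0.650 CPM of Sox2, from 9 and 3 UMIs. Both intervals there overlapped the tip interval of 0.191 to 1.37 CPM. Type 1-like Sox9 was at 31.2 and 46.2 CPM, below the tip and above the airway level. The unnamed epithelium is most of the epithelium. Pooled as a class, it also lay between the airway-like and tip-like values of Sox2 and Sox9 in each library. Its single clusters did not all do so. In the Epcam+ Icam+ libraries an unnamed cluster had 80.97 and 97.66 CPM of Sox9, above the tip-like 70.92 and 77.33 CPM. Its Sox2 was at 2.106 and 1.495 CPM, and its median depth was 22800 and 22154 UMIs. The Sox9 intervals of cluster and tip-like class overlapped in the first library only.

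**Figure D1:**
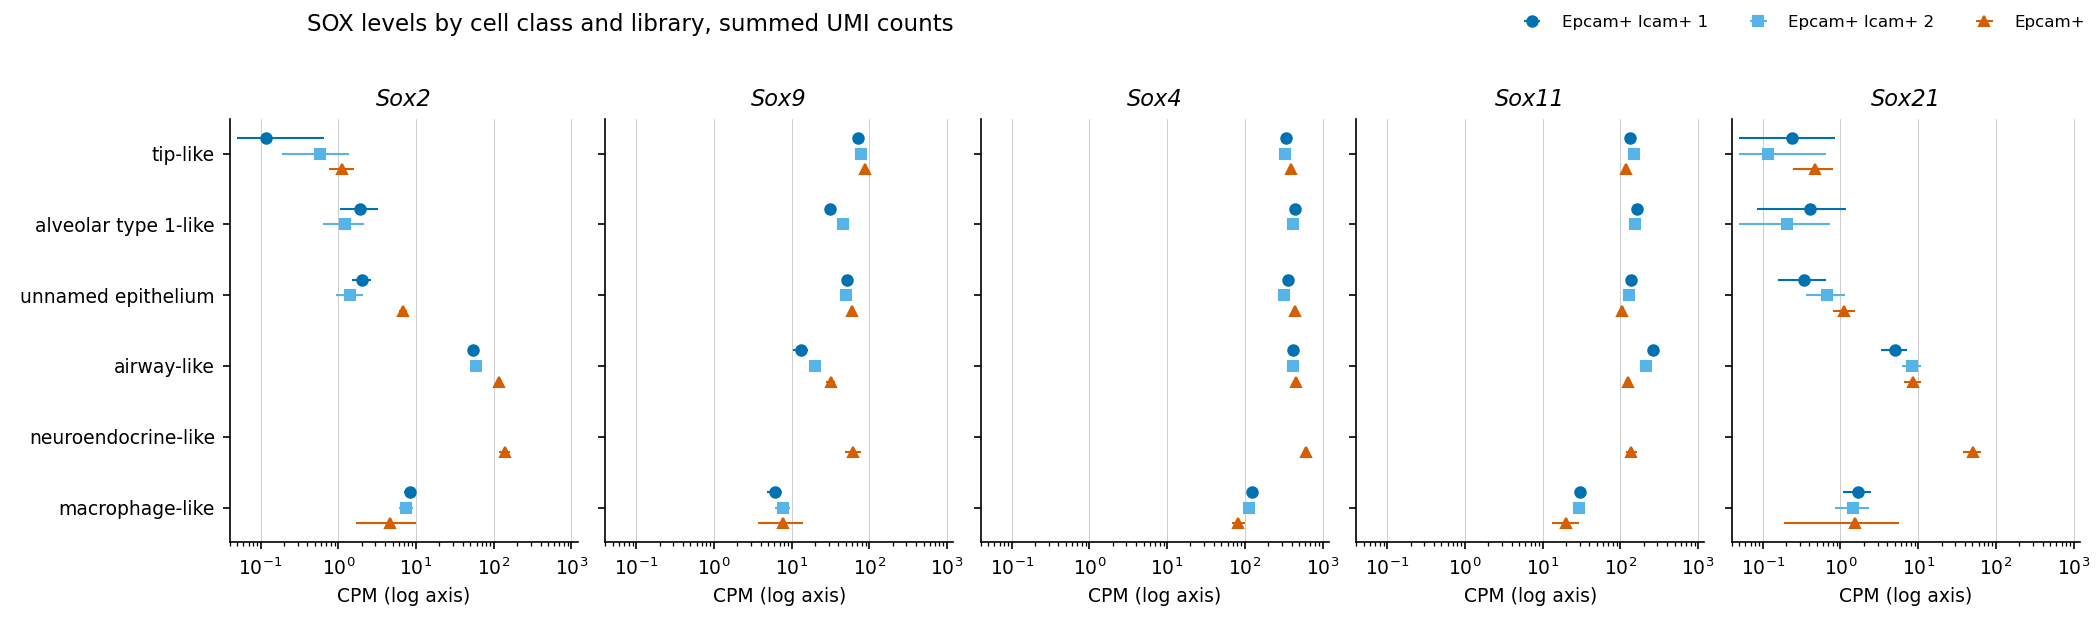
Level of each SOX gene in CPM on a log axis, by cell class (rows) and library (symbols), with bars for exact 95% Poisson intervals of the summed UMIs. Sox2 and Sox21 spread over orders of magnitude between classes, with Sox2 at 54.7 to 117.8 CPM in airway-like and 0.119 to 1.11 CPM in tip-like cells. Sox4 and Sox11 stay within narrower ranges across the pooled epithelial classes. Single epithelial clusters, not shown here, ranged more widely, from 73.2 to 606.6 CPM for Sox4.

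Single clusters showed the same division. In the plot of Sox2 against Sox9 by cluster, the airway-like clusters held 47.3 to 147.6 CPM of Sox2, and apart from 1 neuroendocrine-like cluster of the Epcam+ library no other epithelial cluster exceeded 14.3 CPM. Clusters of 230 and 299 unnamed cells in the Epcam+ library held 14.3 and 13.7 CPM of Sox2 beside 40.6 and 49.1 CPM of Sox9, so that both genes were present at the level of the cluster. Sox9 reached 110.7 CPM in an unnamed Epcam+ cluster whose median depth was only 2093 UMIs per cell, and 107.3 CPM in a tip-like cluster of the same library.

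**Figure D2:**
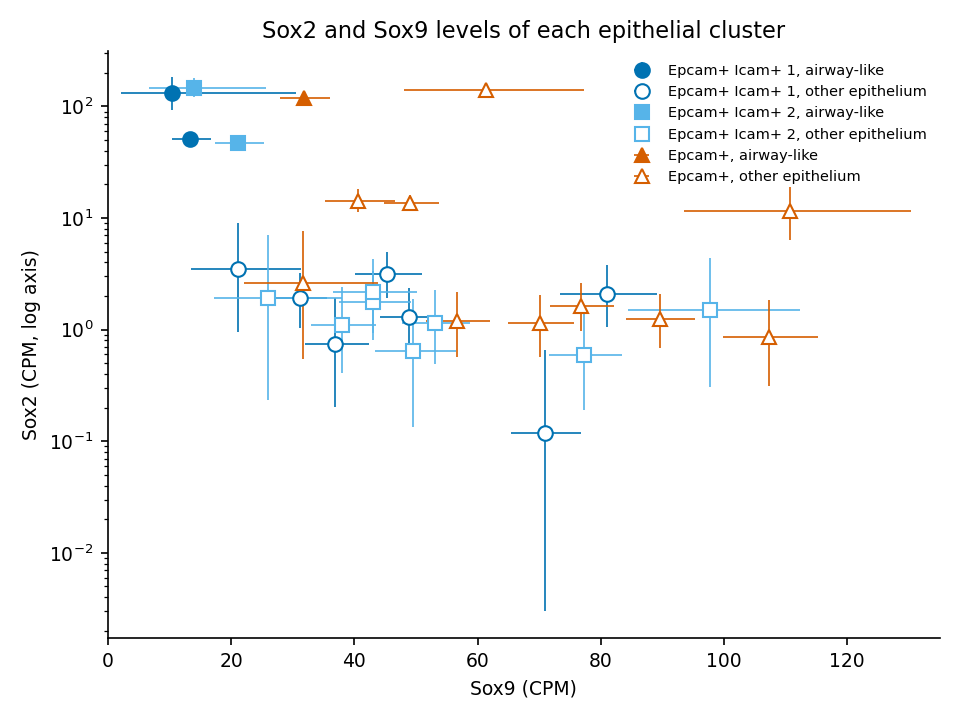
Sox2 (vertical, CPM on a log axis) against Sox9 (horizontal, CPM) for every epithelial cluster, with exact 95% Poisson bars. Filled symbols are airway-like clusters, at 47.3 to 147.6 CPM of Sox2 and 10.5 to 31.8 CPM of Sox9, and the open triangle at 138.9 CPM of Sox2 is the neuroendocrine-like cluster of the Epcam+ library.

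The airway-like class of each Epcam+ Icam+ library held 2 clusters, and among the 5 members these differed in the SOXB and SOXC genes more than in Sox9. The smaller ones (39 and 70 cells) were rich in Scgb3a2, a secretory protein of early airway cells, at 16950 and 8633 CPM, and were shallow, with medians of 6369 and 9562 UMIs. Their Sox2 was at 132.5 and 147.6 CPM, against 50.7 and 47.3 CPM in the larger airway-like clusters (261 and 288 cells). Sox21 was likewise higher there, at 34.9 and 30.6 CPM against 3.46 and 5.34 CPM. The SOXC genes were lower in the Scgb3a2-rich cells. Sox4 was at 73.2 and 149 CPM against 439 and 450 CPM, and Sox11 at 55.8 and 76.6 CPM against 275 and 235 CPM. The other shallow epithelial clusters of these libraries also had little Sox4: unnamed clusters with medians of 3378.5 and 2803 UMIs had 123 and 139 CPM of Sox4. In the Epcam+ library the shallow unnamed cluster named above had 460.5 CPM. The part of depth in these levels was not tested.

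Sox21 followed Sox2. It was at 5.02, 8.29 and 8.55 CPM in airway-like cells (29, 51 and 64 UMIs) and at 0.237, 0.118 and 0.467 CPM in tip-like cells (2, 1 and 13 UMIs). The log2 ratio of airway to tip was 4.40 (2.42 to 7.52), 6.14 (3.60 to 11.47) and 4.2 (3.32 to 5.18). With so few UMIs the size of these ratios is loose, but each interval excluded 0. Across thinned epithelial cells Sox21 was also the member most correlated with Sox2, with Pearson's r of 0.17, 0.24 and 0.175 over 2182, 1941 and 2448 cells that share library and depth. Of epithelial cells, 4, 5 and 15 had a UMI of both genes, which was 13.2, 12.3 and 6.58 times the product of the single shares.

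The 35 neuroendocrine-like cells of the Epcam+ library, early members of the sensory and secretory lineage of the airway, stood out by Sox21. Sox21 was at 50.3 CPM (exact 95% interval 38.3 to 64.8), against 8.55 CPM in the airway-like cells of that library. Sox2 was at 138.9 CPM, Sox4 at 606.6 CPM and Sox11 at 138.9 CPM, each above every other epithelial cluster of that library. Each interval overlapped that of the next highest cluster. These were 118.4 to 161.9 against 110.2 to 125.8 CPM for Sox2 and 562.9 to 652.8 against 556.8 to 598.8 CPM for Sox4. The next highest Sox11 level was 125.9 CPM. Sox9 at 61.3 CPM lay within the range of the other clusters.

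Sox4 and Sox11 were present across the whole epithelium. Sox4 was at 373, 356 and 428 CPM and Sox11 at 156, 152 and 113 CPM in all epithelial cells. After thinning to 5000 UMIs per cell, 77.0%, 75.5% and 83.6% of epithelial cells had a Sox4 UMI and 45.3%, 45.8% and 40.4% a Sox11 UMI (88.8%, 86.8% and 95.2%, and 73.3%, 71.5% and 82.5%, without thinning). Cells with both numbered 1.02, 1.04 and 1.02 times the product of the single shares. The SOXC genes thus varied far less between classes than the SOXB genes. Airway-like cells had somewhat more Sox4 than tip-like cells, at 421, 415 and 452 CPM against 334, 332 and 388 CPM. Sox11 was higher in airway-like cells in the Epcam+ Icam+ libraries, at 264 and 217 CPM against 131 and 151 CPM. In the Epcam+ library it was at 124 and 119 CPM, a log2 ratio of 0.06 whose interval (-0.05 to 0.16) includes 0. In all, 14 of 15 airway-to-tip intervals excluded 0. The direction for Sox4 and Sox11 depended on the clusters: with the libraries clustered jointly, the log2 ratio was -1.10 and -0.91 for Sox4 and -1.25 and -0.37 for Sox11 in the Epcam+ Icam+ libraries, where the joint airway-like class held only 59 and 79 cells.

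Of the other SOX genes in the tables, Sox5, Sox6, Sox12 and Sox13 reached 5 CPM in a class of at least 40 cells, and 11 did not. Sox5, a SOXD factor that lacks an activation domain of its own, was higher in airway-like than tip-like cells, at 40.2, 39.0 and 16.6 CPM against 16.6, 14.01 and 7.90 CPM. Its partner Sox6 was at 21.5, 18.2 and 12.96 CPM against 15.7, 21.1 and 11.3 CPM, a direction that differed between libraries. The Sox6 intervals overlapped in every library. The third SOXC gene, Sox12, was at 43.1, 39.7 and 33.8 CPM against 45.8, 48.7 and 26.5 CPM. Its direction differed likewise, with overlapping intervals in the Epcam+ Icam+ libraries only. Sox13 was lower in airway-like cells in every library, at 1.39, 1.63 and 2.14 CPM against 2.61, 3.06 and 5.53 CPM. The airway values rest on 8, 10 and 16 UMIs, and the intervals overlapped in both Epcam+ Icam+ libraries.

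Macrophage-like barcodes held SOX transcripts, but chiefly where they also held epithelial transcripts. Sox2 was at 8.44, 7.44 and 4.64 CPM there, which is 105%, 79.6% and 25.6% of its level in the epithelium. Sox21 stood at 187%, 95.6% and 63.9% of its epithelial level, from only 24, 17 and 2 UMIs, and Scgb3a2 at 76.1%, 55.6% and 68.5%. The other members were far lower relative to the epithelium, with Sox9 at 12.9%, 15.3% and 11.5%, Sox11 at 19.6%, 19.6% and 17.8% and Sox4 at 33.4%, 31.8% and 19.3%. Epcam, for comparison, stood at 16.1%, 13.6% and 8.87%, and the tip gene Sftpc at 11.3%, 9.75% and 9.59%. Sox2, Sox21 and Scgb3a2 thus kept a larger part of their epithelial level in these barcodes than Sox9 and Sftpc. In the Epcam+ library this is loose for Sox2, with 6 UMIs, and for Sox21. The Sox21 interval there (0.188 to 5.59 CPM) includes its epithelial level of 2.42 CPM.

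The macrophage-like barcodes with a Sox2 UMI (44, 40 and 2) had a median of 1288, 1148 and 1160 CPM of epithelial marker genes, against 102.7, 100.7 and 253.4 CPM in those without. In the 322, 274 and 19 macrophage-like barcodes under 200 CPM of epithelial markers, Sox2 was at 0.834, 0.695 and 0 CPM. The 0 in the Epcam+ library allows up to 6.77 CPM by the limit of 3 counts. Sox21 had 0, 0 and 1 UMI there, and in the Epcam+ Icam+ libraries the level of 3 UMIs is 0.417 and 0.521 CPM. Sox11 was also low, at 2.23, 5.21 and 2.26 CPM. Sox4 alone remained well detected, at 57.6, 75.1 and 51.9 CPM from 414, 432 and 23 UMIs. The barcodes at or above 200 CPM of epithelial markers (239, 201 and 32) had 16.1, 14.1 and 7.07 CPM of Sox2 and 59.2, 54.1 and 29.5 CPM of Sox11. The split at 200 CPM was chosen after the data had been seen.

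Cells with UMIs of both Sox2 and Sox9 were fewer than the product of the single shares. In epithelial cells thinned to 5000 UMIs, 2.52%, 3.71% and 7.35% had a Sox2 UMI and 17.9%, 20.4% and 23.9% a Sox9 UMI. Both were found in 4 of 2182, 4 of 1941 and 27 of 2448 cells, or 0.183% (exact binomial 95% interval 0.05 to 0.469), 0.206% (0.0562 to 0.527) and 1.10% (0.728 to 1.60). The products were 0.451%, 0.757% and 1.76%. The measured share was therefore 0.407, 0.272 and 0.627 times the product, and the interval of the first ratio (0.111 to 1.04) includes 1 whereas those of the others (0.0742 to 0.696, and 0.414 to 0.909) do not. Cells are not replicates, so this is a count with its counting error and no test. Without thinning, the ratios were 0.582, 0.499 and 0.753, from 38, 33 and 196 cells.

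The cells with both were in the airway-like class (2, 2 and 10), the unnamed epithelium (2, 2 and 13) and, in the Epcam+ library, the neuroendocrine-like cluster (4). Within the airway-like class the ratio to the product was 0.979 (0.119 to 3.5), 0.411 (0.0499 to 1.47) and 0.794 (0.384 to 1.44). These intervals hold both 1 and the ratio of the whole epithelium, so at this depth they do not tell whether co-detection was low inside the class. None lay in the tip-like class: 0 of 300, 0 of 283 and 0 of 806 cells, which by the limit of 3 counts allows a share of up to 1.0%, 1.06% and 0.372%. Only 0, 1 and 3 tip-like cells had a Sox2 UMI, so the product of the single shares, at 0%, 0.109% and 0.114%, also comes to less than 1 cell in each library. The macrophage-like barcodes, as a background, had both genes in 1 of 537, 0 of 441 and 0 of 49, which allows up to 0.680% and 6.12% in the last 2. A Sox2 UMI alone was found in 3.91%, 2.27% and 2.04% of thinned macrophage-like barcodes. The Sox2 share of tip-like cells, at 0%, 0.353% and 0.372%, was below it. That background itself holds epithelial transcripts, since 115 of 121, 82 of 86 and 6 of 6 Sox2 UMIs lay in barcodes with at least 200 CPM of epithelial markers. The barcodes under 200 CPM had 0.834, 0.695 and 0 CPM of Sox2, beside 0.119, 0.589 and 1.11 CPM in tip-like cells, and the intervals overlapped in each library. Median depth before thinning was 24570, 23972 and 25240 UMIs in macrophage-like barcodes and 27114, 28375.5 and 32072.5 UMIs in tip-like cells.

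**Figure D3:**
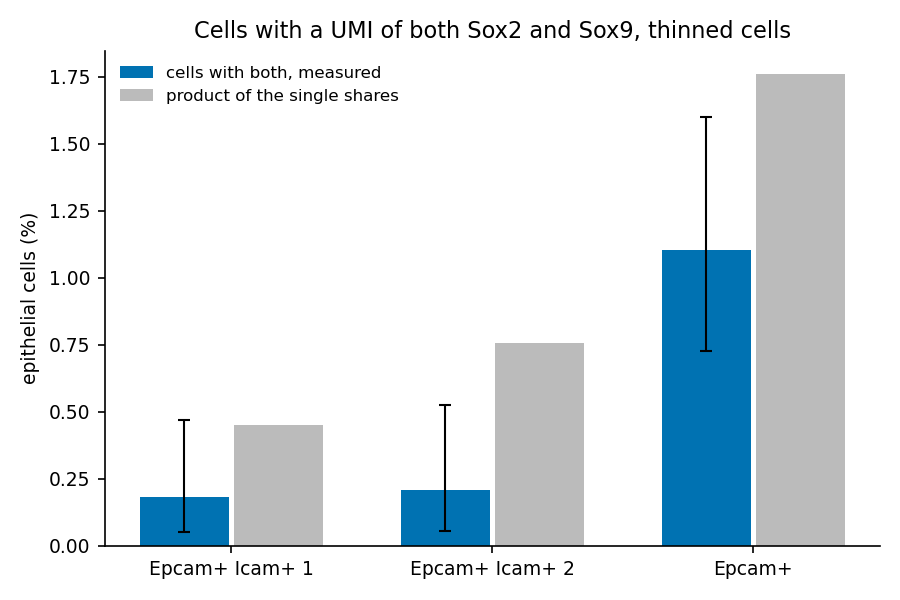
Share of epithelial cells (percent, vertical) with a UMI of both Sox2 and Sox9 after thinning to 5000 UMIs, by library, with exact binomial 95% bars (dark), beside the product of the single shares (grey). The measured bars are at 0.183%, 0.206% and 1.10%, each below its grey bar, and only the first error bar reaches the grey level.

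The genes most like each member across epithelial cells were ranked by the lowest of the 3 libraries' Pearson's r, among 4125 genes. These correlations describe sparse counts of cells that share a library, and most are weak. For Sox2 the leading genes were Scgb3a2 (r of 0.238, 0.355 and 0.353), the calcium-binding protein gene S100a6 (0.199, 0.25 and 0.407), the cell cycle inhibitor gene Cdkn1c (0.171, 0.168 and 0.332) and the claudin gene Cldn10 (0.152, 0.153 and 0.236). Aldh1a7, Ccnd2, Ifitm3 and Anxa1 followed. At the other end stood the surfactant gene Sftpc (-0.166, -0.202 and -0.265), Cldn18, Tmsb10, Tspan8 and Thbs1. Airway genes thus stood at one end of the Sox2 ranking and a tip gene at the other.

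For Sox9 the ends were exchanged. Sftpc led (0.164, 0.119 and 0.109), followed by Etv5, a target of FGF signalling at the tip (0.132, 0.101 and 0.1), the basement membrane collagen gene Col18a1, Id2, Dlk1, Clu, Bex4 and the tip ligand gene Bmp4. Cdkn1c was lowest (-0.163, -0.151 and -0.115), with Cldn10, Krt18, Aldh1a7 and S100a11. Cdkn1c, Cldn10 and Aldh1a7 were thus among the highest for Sox2 and the lowest for Sox9. Sox2 and Sox9 themselves had r of -0.0486, -0.0728 and -0.0595.

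The SOXC genes shared 2 of their leading genes, Malat1, a nuclear noncoding RNA, and Ccnd2, a G1 cyclin gene. For Sox4, Malat1 had r of 0.154, 0.139 and 0.174 and Klf6 0.146, 0.125 and 0.19, and for Sox11 Malat1 had 0.183, 0.154 and 0.0874. The Sox11 ranking was unstable: of its 8 leading genes 0 were shared without thinning, 1 at 3000 UMIs and 3 at 10000 UMIs, against 6, 6 and 7 of the 8 for Sox2. Mxd4, Igfbp5, Marcks, Kcnq1ot1 and Kdm5b completed the 8 of Sox4, and Actn4, Actb, Alcam, Gsk3b, Epcam and Slc38a2 those of Sox11. The lowest for Sox4 held H2afz, Pclaf and Tuba1b, genes that are abundant in dividing cells, with Hspa8 and Ppia. The lowest for Sox11 were Ndufv2, Timm13, Bex3, Atp5g2 and Npm1. Sox4 and Sox11 had r of 0.0912, 0.0822 and 0.0342 over the epithelium and 0.187, 0.229 and 0.0548 over airway-like cells.

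Sox21 had S100a6 (0.0972, 0.128 and 0.166), Scgb3a2 and Aldh1a7 in common with Sox2 among its 8 leading genes, beside Gadd45b, S100a11, Larp4b, Uqcr10 and Fosb. Its lowest were Tubb5, Cldn18, Tmsb10, Tmsb4x and Hmgb1. At 12, 11 and 31 thinned cells with a Sox21 UMI, the lower ranks of this list have little behind them. Of the 40 leading genes of all members, 32 were also among the leading 8 by Spearman's rank correlation, 17 without thinning and only 3 within tip-like cells.

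**Figure D4:**
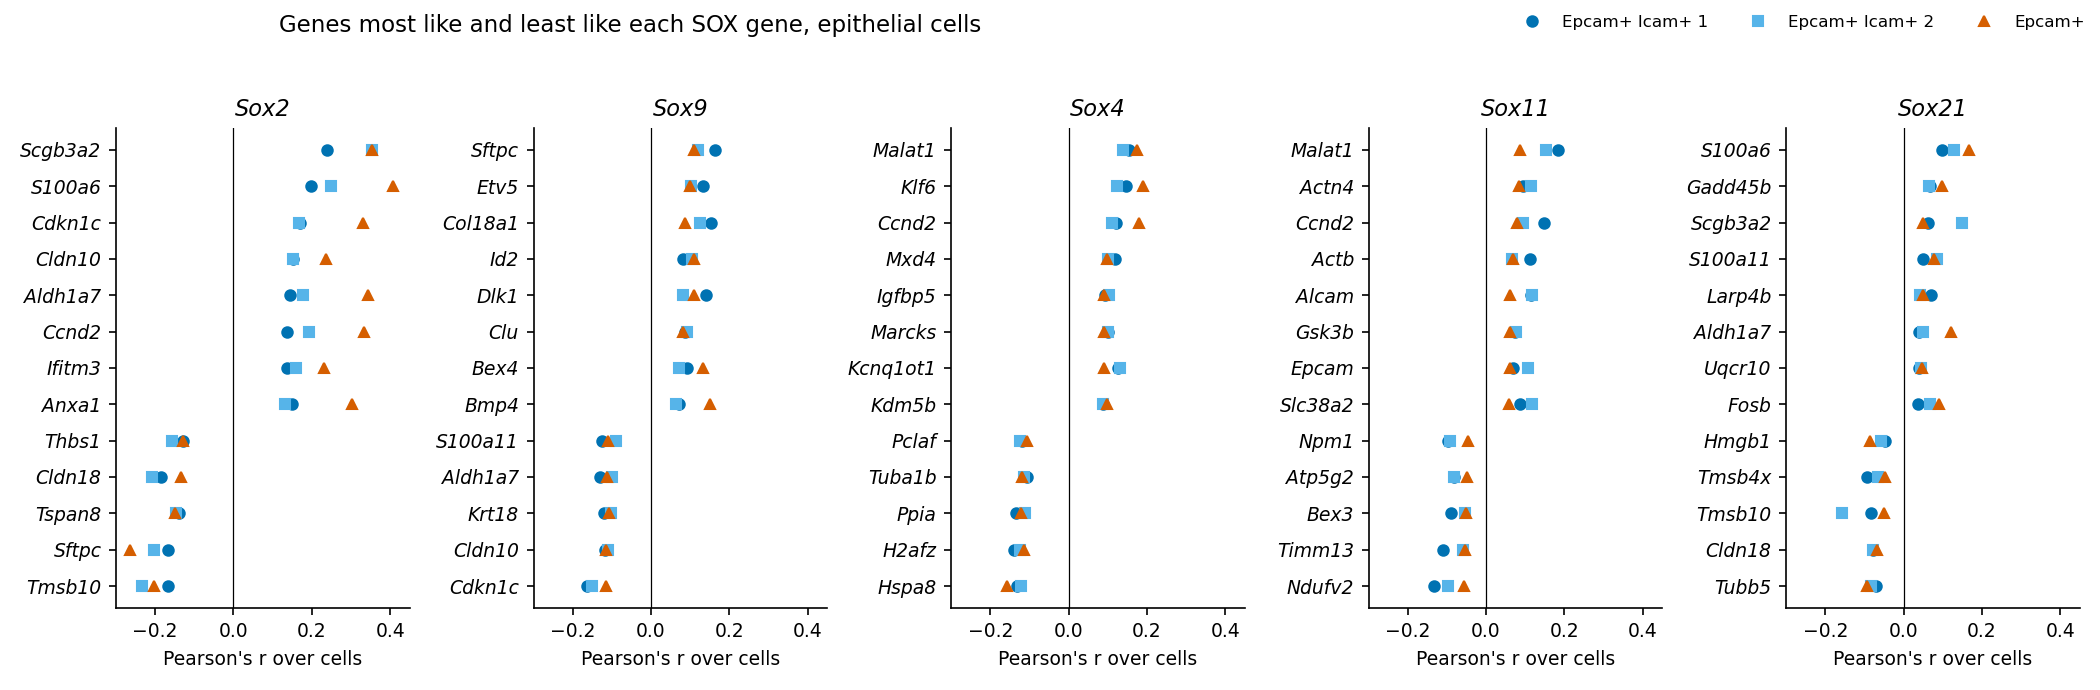
Pearson's r (horizontal) over thinned epithelial cells between each SOX gene (panels) and the 8 most and 5 least similar genes (rows), by library (symbols). Scgb3a2 and S100a6 lead for Sox2 with r up to 0.407, whereas the highest r among the genes shown are, for Sox9, Sox4, Sox11 and Sox21, 0.164, 0.19, 0.183 and 0.166.

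Between the sorts, all 5 members differed in the epithelium, in a comparison in which most genes did. Sox2, Sox9, Sox4 and Sox21 were lower in the Epcam+ Icam+ epithelium and Sox11 was higher. The Sox2 level was 8.001 and 9.35 CPM, and 18.2 CPM in the Epcam+ epithelium, which is -1.16 on the log2 scale (SE 0.0762, adjusted p = 1.08e-17, edgeR quasi-likelihood test). Sox21, its SOXB relative, was at 0.896 and 1.54 CPM against 2.42 CPM (log2 -1.10, SE 0.203, adjusted p = 5.82e-06, edgeR). Without the second Epcam+ Icam+ library its difference was -1.52 and without the first -0.73. Sox9 was at 46.9 and 50.3 CPM against 67.4 CPM (log2 -0.56, SE 0.0397, adjusted p = 1.3e-16, edgeR). Both Epcam+ Icam+ libraries lay below the Epcam+ library for each of these. Sox4 differed by -0.32 (SE 0.0326, adjusted p = 9.11e-12, edgeR), at 373 and 356 CPM against 428 CPM. Sox11 differed by 0.36 (SE 0.0341, adjusted p = 9.44e-13, edgeR), at 156 and 152 CPM against 113 CPM. In the same edgeR test 78.9% of 14738 genes passed, 39.9% higher and 39% lower, so the 5 of 5 members are to be read against a background in which most genes passed. The sort cannot be told apart from the library, the gene table and the software version, which all differ between the groups.

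Genes of the same setting moved in both directions. Of 20 SOX family genes 12 could be tested, 4 were higher and 7 lower in the Epcam+ Icam+ epithelium by the edgeR test. Sox5 was higher (log2 1.31, SE 0.0692) and Sox3 (-3.20, SE 0.744) and Sox8 (-2.05, SE 0.47) were lower. Sox3 and Sox8 are near the floor: neither reached 5 CPM in a class of at least 40 cells. Of 12 tip genes, 8 were lower and 4 higher (median log2 -1.49, against 0.03 over all genes), among them the Wnt ligand gene Wnt7b (-2.33), Lin7a (-2.27) and the FGF target Etv4 (-2.22). Of 12 airway genes, 9 were higher and 2 lower (median 0.85), with Lgals3 (3.32), Cyp2f2 (2.47) and Scgb3a2 (1.69) among the higher. Sox2 thus differed in the direction opposite to most of the airway genes, and Sox9 in the direction of most of the tip genes. Of 15 other lung transcription factors, 5 were higher, led by the type 1 cell gene Hopx (3.88), and 9 lower (Irx1 -1.53). These lists were written with earlier results of these data known.

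Within classes the direction of each called member was that of the epithelium, except in macrophage-like barcodes. In airway-like cells, where 65.4% of 11909 genes passed the edgeR test (33.2% higher and 32.2% lower), Sox2 (-1.12, SE 0.0854, adjusted p = 2.34e-37), Sox9 (-0.98, adjusted p = 2.49e-09) and Sox4 (-0.18, adjusted p = 0.0335) were lower and Sox11 (0.89, adjusted p = 5.71e-26) was higher. Sox21 differed by -0.42 (adjusted p = 0.141, edgeR), by -0.84 without the second Epcam+ Icam+ library and by -0.09 without the first. The single airway-like cluster of the Epcam+ library had 492.5 CPM of Scgb3a2, and leaving out the Scgb3a2-rich clusters of the others gave -1.35 for Sox2 and -1.04 for Sox21 (adjusted p = 0.00108), and -0.11 for Sox4 (adjusted p = 0.205). This alternative was chosen after the data had been seen. These class results depend on the clusters: with doublet-scored cells kept no member passed (Sox2 -0.60, adjusted p = 0.178), in an airway-like class of 314, 95 and 278 cells, and with joint clustering (59, 79 and 485 cells) Sox2 was higher by 1.02 and Sox11 lower by 0.39.

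In tip-like cells 70.4% of 12033 genes passed (35.3% higher and 35% lower), and so did 3 of 3 members tested by edgeR. Sox9 differed by -0.29 (SE 0.0628, adjusted p = 0.000445), Sox4 by -0.27 (SE 0.0414, adjusted p = 9.61e-06) and Sox11 by 0.19 (SE 0.0626, adjusted p = 0.01). Sox2 and Sox21 were too low there to be tested. Without the second Epcam+ Icam+ library the Sox11 difference was 0.09, without the first 0.29, and DESeq2 called only Sox4. In macrophage-like barcodes 37.1% of 12485 genes passed (20.3% higher and 16.7% lower), and of the members only Sox4 did, higher by 0.54 (SE 0.138, adjusted p = 0.00374, edgeR) at 125 and 113 CPM against 82.8 CPM. Sox2 differed by 0.79 (adjusted p = 0.25, edgeR) and Sox11 by 0.60 (adjusted p = 0.0643). The summed epithelial markers moved with this, at 665.7 and 579.5 CPM in the Epcam+ Icam+ macrophage-like barcodes against 397.1 CPM, with 6 of 6 detected in each, and their part in the result was not tested. The Sox4 call was lost with DESeq2 (adjusted p = 0.11), and with cells of at least 2500 UMIs and at most 5% mitochondrial UMIs its difference was -0.61. By the edgeR test, 7 of 11 tip genes were lower and 4 higher in tip-like cells. Among these, Sftpc differed by 2.3, Wnt7b by -1.92, Lin7a by -1.35 and Id2 by -1.32. In airway-like cells 8 of 11 tip genes were lower and 3 higher by the same test. In macrophage-like barcodes 6 of 11 airway genes were higher and 0 lower.

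Across scored cell cycle phases of the epithelium, Sox9 was higher in S and G2/M than in G1, Sox2, Sox21 and Sox4 were lower, and Sox11 did not pass. Phases were scored from cell cycle genes that include no SOX gene, and fitted with the library as a block. Sox9 went from 32.6, 38.8 and 43.8 CPM in G1 to 54.4, 60.2 and 68.9 CPM in S and 54.1, 55.2 and 70.1 CPM in G2/M. Every library showed the rise, which was 0.70 in S (log2, SE 0.0668, adjusted p = 1.52e-06, edgeR) and 0.67 in G2/M (SE 0.0632, adjusted p = 1.14e-06, edgeR). Sox2 went from 10.0, 11.6 and 48.1 CPM in G1 to 6.13, 8.60 and 10.7 CPM in S and 7.48, 7.77 and 16.8 CPM in G2/M. Its differences were -1.34 (adjusted p = 0.000496, edgeR) and -0.90 (adjusted p = 0.00224, edgeR, and 0.0559 with DESeq2). The Epcam+ library set their size, since without it they were -0.55 and -0.51.

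Sox21 went from 1.40, 2.79 and 8.23 CPM in G1 to 0.804, 1.26 and 1.33 CPM in S. Its differences were -1.90 in S (adjusted p = 0.000258, edgeR) and -1.71 in G2/M (adjusted p = 0.00011, edgeR), and -0.99 in S without the Epcam+ library. Sox4 differed by -0.33 (adjusted p = 1.98e-05, edgeR) and -0.29 (adjusted p = 4.43e-05, edgeR), lower in every library. Sox11 differed by -0.08 (adjusted p = 0.228, edgeR) and -0.02 (adjusted p = 0.808, edgeR), with 159.4, 157.8 and 121.8 CPM in G1 and 152.3, 140.6 and 112.8 CPM in S, and passed in S when the Epcam+ library was left out (adjusted p = 0.0421). In these edgeR comparisons 37.4% and 44.2% of 13172 genes passed, with 21.6% and 25.3% higher and 15.8% and 18.9% lower. Of the 5 members, 1 was higher and 3 lower in each phase.

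**Figure D5:**
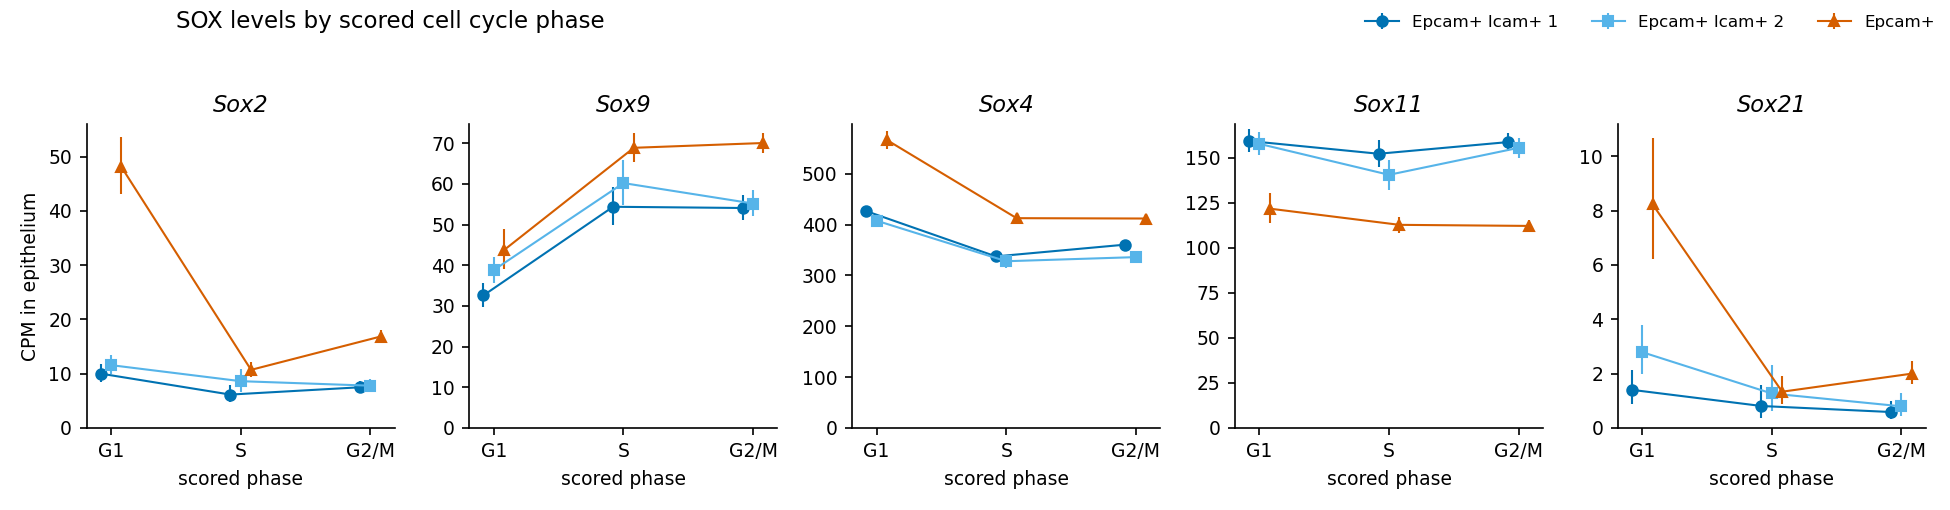
Level in epithelial cells (CPM, vertical, from 0) of each SOX gene (panels) by scored phase (horizontal) and library (symbols), with exact 95% Poisson bars and lines joining the values of 1 library. Sox9 is lowest in G1 in each library (32.6 to 43.8 CPM), and the Sox2 value of the Epcam+ library in G1 (48.1 CPM) stands apart from all its others.

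The classes were unevenly spread over the phases. Airway-like cells made up 19.1%, 27.1% and 28.3% of G1 cells and 8.72%, 8.43% and 7.83% of S cells. Tip-like cells made up 3.17%, 5.63% and 4.17% of G1 cells and 21.3%, 23.3% and 36.6% of S cells. The tip list moved with Sox9, with 7 of 11 tested genes higher and 0 lower in S (Etv4 1.48, Lin7a 1.25), and the airway list with Sox2, with 0 of 10 higher and 8 lower (Cbr2 -1.37, Scgb3a2 -1.24), by the edgeR test. In G2/M the counts were again 7 higher of 11 and 8 lower of 10. Of the 15 lung transcription factors 7 were higher and 2 lower in each phase. Of 9 SOX family genes tested, 2 were higher and 4 lower in S, and 1 was higher and 5 lower in G2/M, where Sox5 differed by -0.63. Within airway-like cells Sox2 was not lower outside G1 in the Epcam+ Icam+ libraries, at 40.1 and 40.0 CPM in G1, 66.3 and 98.7 CPM in S and 70.7 and 86.1 CPM in G2/M. In the Epcam+ library it was at 129.5, 111.5 and 113.9 CPM in these phases. Sox9 in airway-like cells was at 12.2, 20.0 and 24.6 CPM in G1 and 12.1, 20.4 and 25.7 CPM in S. In G2/M it was at 15.4, 19.8 and 37.5 CPM, so that 2 of 3 libraries had more Sox9 there than in G1. These values within the class were not tested.

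Within tip-like cells no member passed in either phase by the edgeR test, in which 6.61% (S) and 9.43% (G2/M) of 10251 genes did (5.12% and 6.36% higher, 1.49% and 3.07% lower). Sox9 was at 44.0, 68.3 and 53.9 CPM in G1 and 78.2, 85.8 and 87.0 CPM in S, higher in every library. Its log2 difference was 0.46 in S (unadjusted p = 0.00478, adjusted p = 0.0632, edgeR) and 0.36 in G2/M (unadjusted p = 0.0198, adjusted p = 0.134, edgeR). G1 held only 27, 46 and 14 tip-like cells. Sox4 had an unadjusted p of 0.0148 and an adjusted p of 0.14 in S (log2 -0.23, edgeR), and DESeq2 also called 0 of 3 members. Without the second Epcam+ Icam+ library Sox9 passed in both phases (0.77 and 0.73), and without the Epcam+ library Sox4 did (-0.37 and -0.25). Of the lists in tip-like cells, 1 tip gene was higher and 1 lower of 11 in S, and 1 higher and 0 lower in G2/M, and 2 of 6 airway genes were lower in each phase, with 1 higher in G2/M.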

How the data were processed

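UMI counts per gene and cell were deposited by the authors as 1 matrix per library, not normalized. Cell Ranger 5.0.1 made the Epcam+ Icam+ matrices and 3.0.2 the Epcam+ matrix, per the file headers, whereas the submitters' processing notes name Cell Ranger 2.1.1 and mm10. Their barcode lists had been thresholded, with the lowest barcode at 495 to 499 UMIs.

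Barcodes under 1000 UMIs, under 500 detected genes or above 10% mitochondrial UMIs were dropped. Scrublet in scanpy 1.11.5 scored doublets, and 129, 115 and 88 barcodes were removed at a fixed rate of 0.8% per 1000 cells. Median depth was 19496, 19429.5 and 26646 UMIs per cell. Each library was clustered on its own (2000 variable genes, 30 components, 15 neighbours, Leiden resolution 1) without SOX, cell cycle, histone, globin, mitochondrial and ribosomal genes, Icam1 and Epcam. The cell cycle, histone and globin genes were left out after first clusters had been seen. A cluster was named when at least 3 markers of a list were raised by 0.5 on the log2 scale (pseudocount 5 CPM). The tip and alveolar type 2 lists counted as 1 list, which gave the tip-like name. Clusters with fewer raised markers stayed unnamed, as did low-depth clusters without leading markers. So did clusters in which another list had more of the 10 leading genes. Unnamed clusters were not all shallow, with a median of 28754 UMIs in 1 of the Epcam+ library.

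UMI counts were summed per library and class. Sorts (2 libraries against 1, so the spread is borrowed across genes) and scored phases (library as a block) were tested with edgeR 4.0.16 (quasi-likelihood, TMM, filterByExpr, two-sided, Benjamini-Hochberg over all genes tested, threshold 0.05), after a check on simulated data. DESeq2 1.42.0, other filters, other clusterings and left-out libraries were alternatives. Levels are given with exact Poisson and shares with exact binomial 95% intervals, and intervals and the limit of 3 counts cover counting error only. The interval of a ratio of co-detection is that of the measured share over the product of single shares. For shares, co-detection and correlations each cell was thinned to 5000 UMIs, leaving out shallower cells.

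Genes are named by a rule: the 5 members, other SOX genes with at least 5 CPM in a class of at least 40 cells, for each member the 8 genes with the highest lowest r and the 5 with the lowest highest r over the libraries among genes of at least 20 CPM (no gene models, mitochondrial or ribosomal protein genes), and up to 4 genes with the largest change from lists of SOX family, tip, airway and lung transcription factor genes. The members and lists were chosen with earlier results of these data known.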

Additional observations from a re-analysis of the deposited data

Results flagged for a closer look

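The sort difference of 2 members ran in opposite directions in epithelial and macrophage-like cells. Epcam+ Icam+ minus Epcam+ on the log2 scale, Sox2 differed by -1.16 in the epithelium and -1.12 in airway-like cells, and by 0.79 in macrophage-like barcodes, where it did not pass the edgeR test. Sox4 differed by -0.32 in the epithelium, -0.27 in tip-like and -0.18 in airway-like cells, and by 0.54 in macrophage-like barcodes. The last Sox4 difference turned negative with the stricter cell filter and with joint clustering, and DESeq2 did not call it. Macrophage-like barcodes under 200 CPM of epithelial markers had 57.6 and 75.1 CPM of Sox4, against 51.9 CPM (32.9 to 77.9) in the Epcam+ library, with overlapping intervals. The difference between these classes was not tested.

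Within airway-like cells, Sox2 in both phases and Sox11 in G2/M ran in opposite directions in the 2 Epcam+ Icam+ libraries and the 1 Epcam+ library. The log2 ratio of S to G1 for Sox2 was 0.725 and 1.3 for the Epcam+ Icam+ sort, against -0.216 for the Epcam+ sort. For G2/M it was 0.818 and 1.11 against -0.185. Sox11 in G2/M over G1 was 0.228 and 0.121 against -0.395. In S over G1 it was 0.343 and -0.216 in the Epcam+ Icam+ libraries, against -0.147. These differences between the sorts were not tested, and no intervals were set on the ratios. The Epcam+ ratios of Sox2 rest on 242 UMIs in G1, 169 in S and 465 in G2/M.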

How the results depend on the processing

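The sort differences in the epithelium kept their direction in 40 of 40 values, and their call wherever a test was run. The values with 1 Epcam+ Icam+ library left out are among these and have a difference only, with no test and no call. The phase differences there kept direction and call in 54 of 55 values for S and 54 of 55 for G2/M. No paired analysis was possible because the Epcam+ group has 1 library with no replicate number, so the sorts share fewer than 2 numbers. The phase fit has the library as its block. Class results moved more, and the cause was not tested.

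Joint clustering turned the airway-like sort difference to 1.02 for Sox2, -0.39 for Sox11 and 2.22 for Sox21, and the macrophage-like difference to -0.28 for Sox4 and -0.61 for Sox11. The stricter cell filter gave -0.61 and -0.94 for the last 2. The airway-to-tip log2 ratio turned to -1.10 (Sox4) and -1.25 (Sox11) with joint clustering in the first Epcam+ Icam+ library, and to -0.91 and -0.37 in the second, where keeping doublet-scored cells gave -0.30 and -0.0198. Of all 75 airway-to-tip ratios under the alternatives, 20 moved beyond their interval without turning and 6 turned. For Sox2 in the first Epcam+ Icam+ library the log2 ratio was 6.24 to 8.69 under the alternatives, against 8.85. The levels in macrophage-like barcodes moved in 14 of 15 values when only barcodes under 200 CPM of epithelial markers were used, an alternative chosen after the data had been seen.

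Of the members, DESeq2 called 1 in tip-like cells (3 with edgeR) and 0 in macrophage-like barcodes (1 with edgeR). Keeping doublet-scored cells left 0 in airway-like cells (4 without them) and 0 in macrophage-like barcodes, where the strict filter and joint clustering each called 3. For phases in tip-like cells, where edgeR called 0, the counts were 1 with doublet-scored cells, 2 with the strict filter, 4 with joint clustering and 0 to 2 with a library left out.

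The co-detection ratio was 0 in both Epcam+ Icam+ libraries when at least 2 UMIs were asked for, with intervals reaching 6.89 and 6.1, so this setting has too few cells to be read. It was 0.234 (3000 UMIs) and 0.341 (strict filter) in the Epcam+ library, and 0.77 (0.31 to 1.58) with the strict filter in the first Epcam+ Icam+ library. Of the 40 leading correlates, 22 were shared at 10000 UMIs, 18 at 3000 UMIs, 17 without thinning and 3 within tip-like cells.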
